A study of Arabidopsis thaliana with 4 samples.

Results

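In Arabidopsis seeds, 1527 of 6356 peaks of LEAFY COTYLEDON1 (LEC1) binding (24.0%, 23.0 to 25.1%) lay just inside the ends of genes. These are the peaks whose midpoint lies inside a protein-coding gene and 300 bp or less from the nearest end of a gene that holds it. The choice uses position only, so width, score and gene identity are free to vary. The peaks come from chromatin immunoprecipitation and sequencing of whole seeds at the bent cotyledon stage. The seeds carried the lec1-1 mutation and the transgene LEC1:LEC1-GFP:LEC1, in which LEC1 is fused to green fluorescent protein (GFP). There were 2 libraries pulled down with an anti-GFP antibody and 2 input libraries of unprecipitated chromatin. Both kinds carry the mutation and the transgene, and no library without the tag is among them. The data are 1 list of peaks for the series, so no value below has a replicate error and no difference could be tested over samples. Ranges in brackets after a share are its exact 95% binomial interval, which reflects counting error alone. Peaks and genes that lie next to each other are not independent.

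LEC1 is a B subunit of the NF-Y complex, a trimer of A, B and C subunits that binds CCAAT boxes, which in many genes lie close to the start of transcription. In the embryo LEC1 works with other maturation regulators, among them B3-domain and bZIP factors, and is known for its part in storage reserve build-up, desiccation tolerance and the greening of the embryo. A gene end in the table used here can be the start or the end of transcription, because the table carries no strand. The peaks described here can therefore be sites just downstream of promoters or sites at the 3′ ends of genes, in shares that are not known. The lower-coordinate end of the gene was the nearer one for 773 of the 1527 peaks (50.6%).

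Peaks just inside gene ends were dense for the little sequence they lie in. The outermost 300 bp of genes made up 24.5% of the sequence of protein-coding genes and held 70.6% of the 2162 peaks with a midpoint in such a gene. That is 96.7 midpoints per Mb, against 13 per Mb deeper inside genes, 129 per Mb in the first 1000 bp outside and 34.8 per Mb farther out. Density dropped steeply within the 300 bp. It was 170 midpoints per Mb in the outermost 50 bp of genes, 100.1 per Mb at 100 to 149 bp and 31.1 per Mb at 250 to 299 bp. On the other side of the end, the first 50 bp outside genes held 225 midpoints per Mb and the next 50 bp held 241 per Mb. Farther from the end, at 201 to 250 bp outside the density was still 119 per Mb, and at 200 to 249 bp inside it was 54.2 per Mb.

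**Figure D1:**
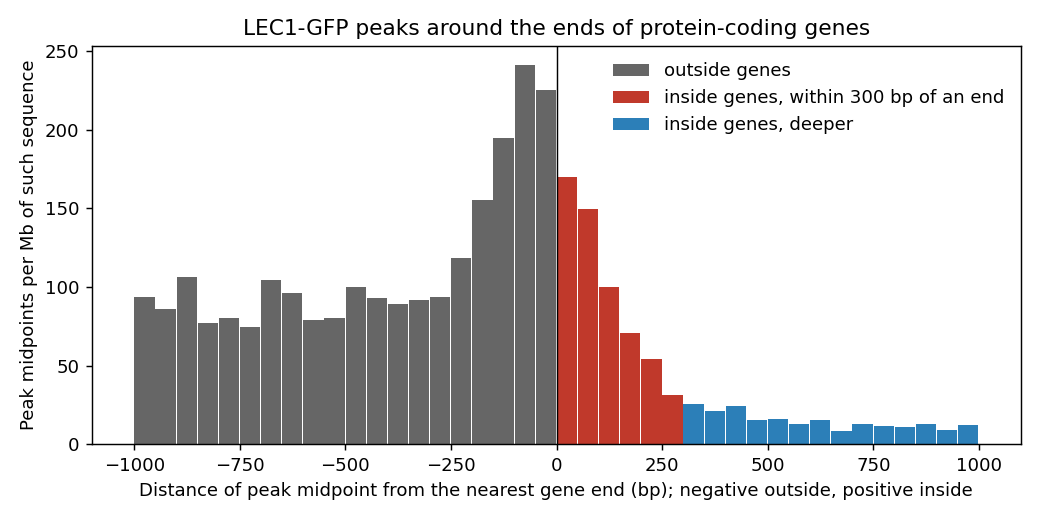
Density of LEC1-GFP peak midpoints (midpoints per Mb of sequence at that distance) in bins of 50 bp around the nearest end of a protein-coding gene. Negative distances lie outside genes (grey) and positive ones inside (red up to 300 bp, blue deeper); the density is highest at 51 to 100 bp outside, 241 per Mb, and falls inside genes from 170 per Mb to 31.1 per Mb within 300 bp.

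Most of these peaks sat close to the end itself. The midpoint was a median of 86 bp inside the gene (interquartile range 41 to 156 bp), with 855 of the 1527 (56.0%, 53.5 to 58.5%) less than 100 bp inside. The peak itself ran over the nearest gene end in 879 cases (57.6%, 55.0 to 60.1%) and then reached a median of 73 bp beyond it. The other 648 lay wholly inside the gene whose end was nearest. Whether a peak crosses the end is set by its width and the depth of its midpoint, which the rule limits to 300 bp. Wide peaks therefore cross more often by construction: 21.7% of the peaks of 49 to 99 bp crossed the end and 93.8% of those of 449 bp or more. At like width the crossing peaks and the peaks wholly inside had similar scores, for example medians of 2.58 and 2.56 at 249 to 299 bp. Only 30 of the 1527 peaks (1.96%) lay within 300 bp of an end of 2 genes at once, and 146 (9.56%) also touched a protein-coding gene that the midpoint was not in.

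The rule has a hard limit at 300 bp, and some peaks lay within a few bp of it on either side. Nearest inside it were peaks in AT1G09480 at 300 bp with a score of 2.09, in AT5G06440 at 300 bp with 2.03, and in AT3G18050 at 299 bp with 2.90. Nearest outside it were peaks in RPL23AA at 301 bp with a score of 2.06, in ATL8 at 302 bp with 2.40, and in ABI2, a phosphatase of abscisic acid signalling, at 303 bp with 2.29.

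Peaks just inside gene ends were narrower than those elsewhere and seldom broad. Their median width was 199 bp (interquartile range 149 to 299 bp, widest 1099 bp), against 249 bp over all peaks, where widths move in steps of 50 bp. Peaks of 549 bp or more numbered 45 of 1527 (2.95%, 2.16 to 3.92%), against 5.51% of all peaks, 6.93% (5.08 to 9.19%) of the peaks deep inside genes and 6.53% (5.69 to 7.46%) of those in the first 1000 bp outside. At the narrow end, 309 peaks (20.2%, 18.2 to 22.3%) were 99 bp or less, against 18.2% of all peaks.

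Scores just inside gene ends were slightly lower than in the whole list. The score is the authors' own value per peak, on a scale that the sources used here do not give, and it rises with peak width. The median score was 2.39 (interquartile range 2.16 to 2.74, range 1.93 to 4.14), against 2.45 over all peaks, 2.43 deep inside genes, 2.47 in the first 1000 bp outside and 2.48 farther out. In the upper 25% of all scores lay 318 of the 1527 (20.8%, 18.8 to 22.9%), and in the lower 25% lay 438 (28.7%, 26.4 to 31.0%). Of the 636 peaks with the highest scores in the list 17.5% (14.6 to 20.6%) were just inside gene ends, and of the 635 with the lowest scores 27.4% (24.0 to 31.0%). Among the 100 highest scores there were 14.

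The gap in score went with the gap in width. Within each of 5 width classes the median score just inside gene ends lay close to that of all peaks of the same width: 2.05 and 2.05 at 49 to 99 bp, 2.26 and 2.27 at 149 to 199 bp, 2.58 and 2.59 at 249 to 299 bp, 2.91 and 2.90 at 349 to 399 bp, and 3.15 and 3.16 at 449 bp or more. Broad peaks deep inside genes, with a median of 2.99 at 449 bp or more (interval of the median 2.90 to 3.09), had a lower median than equally broad peaks in the first 1000 bp outside (3.20, 3.15 to 3.25), and those just inside gene ends lay between (3.15, 3.04 to 3.26). By depth inside the gene, the median score was 2.39 at 0 to 99 bp, 2.38 at 100 to 199 bp and 2.44 at 200 to 300 bp, with intervals of the median that overlap.

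**Figure D2:**
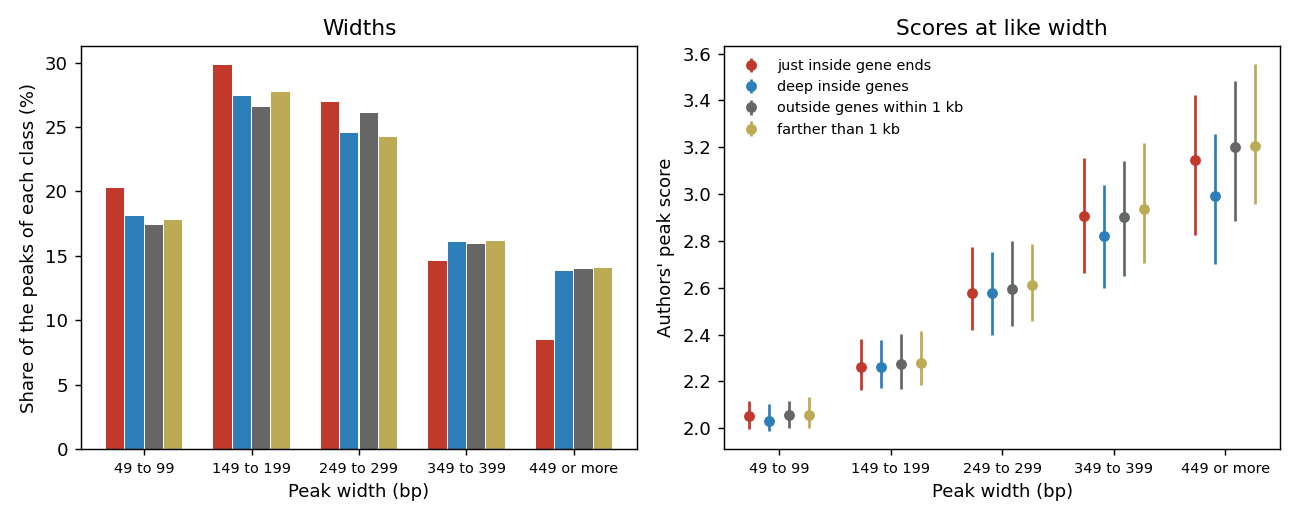
Widths (left, share of each class of peaks in percent by width in bp) and the authors' scores (right, median with interquartile range by width in bp) for peaks just inside gene ends (red), deep inside genes (blue), outside genes within 1000 bp (grey) and farther out (yellow). Peaks of 449 bp or more made up 8.45% of the peaks just inside gene ends and 13.9% to 14.1% of the other classes, whereas medians at like width differed little up to 299 bp.

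**Figure D3:**
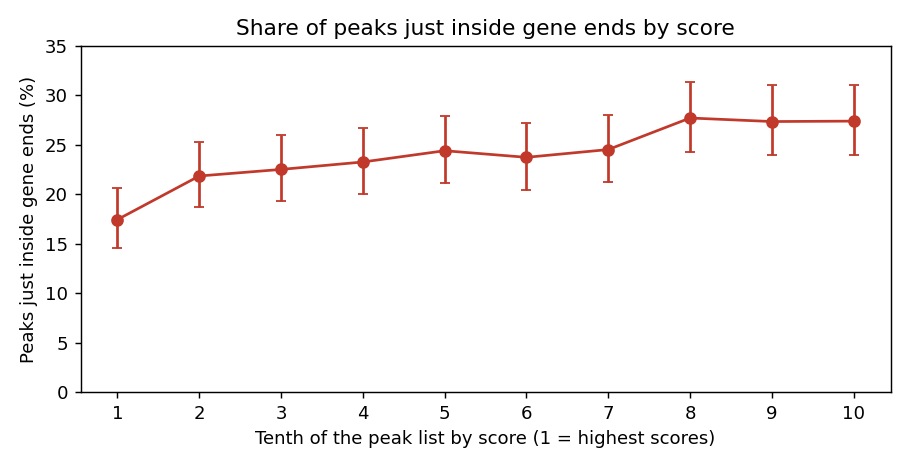
Share of peaks just inside gene ends (percent, with 95% exact binomial intervals) in each of 10 equal parts of the peak list ordered by score, 1 being the highest scores. The share is 17.5% in the part with the highest scores and between 27.4% and 27.7% in the 3 parts with the lowest.

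The 5 chromosomes had similar shares of such peaks, from 23.0% of the peaks on chromosome 1 to 25.1% of those on chromosome 3. Median scores by chromosome ran from 2.34 to 2.45. The gap from the gene end to the next protein-coding gene had a median of 951 bp, and that of all gene ends was 873 bp. Ends that lie within another protein-coding gene were fewer among them, 7.20% (5.96 to 8.62%) against 13.1% of all ends. Few had another peak midpoint within 1000 bp, 190 of 1527 (12.4%, 10.8 to 14.2%), against 17.4% of all peaks. A non-coding RNA gene was also present at 36 of the midpoints (2.36%), and at 31 of them it was a long non-coding RNA.

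The genes holding these peaks numbered 1529, which is 5.57% of the 27444 protein-coding genes. For comparison, 14.7% of protein-coding genes had a peak midpoint in the 1000 bp outside either end. Of the 1529 genes, 1234 (80.7%, 78.6 to 82.7%) had no peak midpoint in the 1000 bp outside either end and none deeper inside. Peaks at those positions are uncommon in any gene, so this share does not set these genes apart. A gene of this set had a peak outside about as often as any gene, in 253 cases (16.5%, 14.7 to 18.5%). A peak deeper inside was present at 60 (3.92%, 3.01 to 5.02%), against 2.23% of all protein-coding genes. Genes of at most 600 bp, in which every position is within 300 bp of an end, were only 44 of the 1529 (2.88%), against 6.37% of all protein-coding genes. The median length of the genes was 2465 bp, against 2078 bp over all. A symbol of their own was given to 772 (50.5%, 48 to 53.0%), against 37.8% of protein-coding genes.

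The highest-scoring peak just inside a gene end lay at CRT1b, which encodes calreticulin, a calcium-binding chaperone of the endoplasmic reticulum. It had a score of 4.14 and a width of 549 bp (TAIR10 chr1:2976651-2977199), and its midpoint was 77 bp inside. Next came AT5G50361, a gene of 198 bp that the peak covers and overruns, with a score of 4.06 (chr5:20506201-20506949). AT5G06980, also named LNK4 for night light-inducible and clock-regulated 4, had a score of 4.05 (chr5:2167001-2167649). Of the 20 highest-scoring peaks 18 crossed the gene end. The score rises with width, and wide peaks cross more often whatever their score. Of all peaks just inside gene ends, 93.8% of those of 449 bp or more crossed it, and 80.3% at 349 to 399 bp. The 2 of the 20 that did not were at AT5G01800, with a score of 3.91 and its midpoint 289 bp inside, and at TRM25, a gene of the TON1 recruiting motif family, with a score of 3.80 and its midpoint 239 bp inside.

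Among the 20 genes, TMAC2 was the sole one on the abscisic acid list. TMAC2, which encodes an ABI5-binding protein that dampens the abscisic acid response, had a score of 3.80 (chr3:386701-387249). LTI65, also known as RD29B and induced by abscisic acid and drying, had a score of 3.67 (chr5:21236801-21237249) with its midpoint 4 bp inside. CBF1, an activator of cold acclimation genes, had a score of 3.73 (chr4:13022601-13023149), and RAP2.10, a DREB factor with a repressive EAR motif, had 3.82 (chr4:17388551-17389149). EDL3, an F-box protein gene, carried a broad peak of 1049 bp with a score of 3.67. LACS8, a long-chain acyl-CoA synthetase, had a score of 3.81 (chr2:1515501-1515949), and the next gene began only 39 bp beyond the end. NF-YB6, also called L1L and a close relative of LEC1 in the B subunit family, scored 3.64 (chr5:19314701-19315149) with its midpoint 147 bp inside.

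Only 9 of these 20 genes have a symbol in the table. The others besides those above were AT4G13050 (3.82), AT3G27610 (3.82), AT4G25707 (3.80), AT3G48240 (3.79), AT5G40340 (3.76), AT3G62695 (3.75), AT3G49796 (3.72) and AT3G52110 (3.70), where the value in brackets is the score. AT3G62695 is 201 bp long and overlaps another gene, and its peak of 1099 bp is the widest of all the peaks just inside gene ends, so the gene to which it belongs is uncertain.

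**Figure D4:**
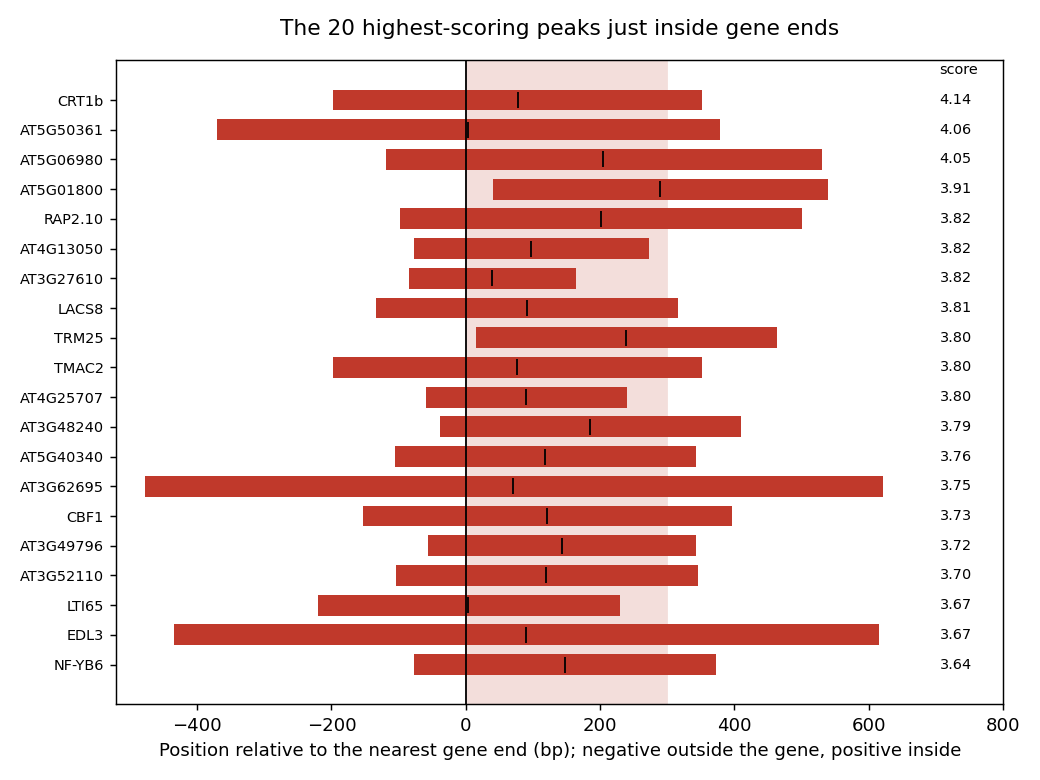
The 20 highest-scoring peaks just inside gene ends, drawn as bars by position in bp relative to the nearest gene end (0, negative outside the gene), with the midpoint as a black tick, the 300 bp zone shaded and the authors' score at the right. All but those at AT5G01800 and TRM25 run over the gene end, and scores go from 4.14 at CRT1b to 3.64 at NF-YB6.

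After AT3G62695 and EDL3, the widest peaks were at FUS3, a B3 regulator of seed maturation, with 949 bp and a score of 3.59 (chr3:9855601-9856549), and at AT5G60580 with 849 bp and a score of 2.76. The fifth was that at AT5G50361, with 749 bp, a width it shares with other peaks. The lowest scores belonged to peaks of 49 bp at ETR2, an ethylene receptor gene, with 1.93, at PUMP1, a mitochondrial uncoupling protein gene, with 1.93, at AT5G54860 and AT1G64680, each with 1.93, and at SCL3, a GRAS-domain factor gene of the gibberellin response, with 1.93.

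Genes with a peak just inside each of their ends were rare, 27 of the 1529 (1.77%). No gene had more than 2 such peaks. In these 27 genes the higher score had a median of 2.81 and the lower one 2.16. At HAI1, a phosphatase that restrains abscisic acid signalling, the scores were 3.35 at 1 end and 2.23 at the other. CGLD27, a gene conserved in green plants and diatoms, had 3.57 and 2.46, and TMT2, a sugar transporter of the vacuole membrane, had 3.06 and 1.94, the lower one with a midpoint that also lies in a second gene. At BARD1, a DNA repair gene, both peaks had a score of 2.77. These genes were picked for description after their values were seen.

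Photosystem and light-harvesting genes had the largest share of peaks just inside gene ends among the 42 lists and name families examined. Such a peak was present at 21 of 45 genes (46.7%, 31.7 to 62.1%), against 5.57% of all protein-coding genes. This first place did not hold among the 3178 highest-scoring peaks, where Calvin cycle genes had 29.6%, seed maturation regulators 26.9% and photosystem genes 26.7%. A peak outside the gene within 1000 bp was present at 40% of the list (18 genes), and at 14.7% of all genes. Shares were 4 of 6 for the antenna of photosystem I (LHCA), 7 of 13 for photosystem I subunits (PSA), 6 of 11 for photosystem II subunits (PSB) and 4 of 15 for the antenna of photosystem II (LHCB). In addition, 9 of the 15 LHCB genes had a peak outside. LHCB4.1, a minor antenna protein gene of photosystem II, scored 3.28 (chr5:208651-209099), with its midpoint 9 bp inside. PSBO1, an extrinsic subunit that stabilises the oxygen-evolving centre, also had 3.28 (chr5:26568451-26568849), its midpoint 78 bp inside, and its paralogue PSBO2 had 3.03. PSAH-1 of photosystem I had 3.19 (chr3:5469351-5469749) and LHCA2 of its antenna had 3.09. The median of the highest score per gene was 2.69 in this list, against 2.39 over all 1529 genes. Lhca6 had a peak inside each end, with scores of 2.46 and 2.12. The shares of the parts of this list were worked out after the values had been seen.

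Calvin cycle and electron transport genes followed with 9 of 27 (33.3%, 16.5 to 54.0%). RBCS3B, a small subunit gene of Rubisco, had a score of 3.39 (chr5:15378351-15378749), and RCA, which encodes Rubisco activase, had 3.25 (chr2:16573401-16573799). The ferredoxin genes FD1 and FED A, the latter also named FD2, had 3.26 and 3.17. The peak at FD1 was 699 bp wide and also lay just inside the overlapping gene TMN1. The median highest score per gene, 3.00, was again above the 2.39 of all genes with such a peak. RBCS genes are similar copies, and the sources used here do not give how reads mapping to several places were handled, so the signal of each copy is uncertain.

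Chlorophyll and tetrapyrrole genes had peaks just inside an end at 5 of 29 (17.2%, 5.85 to 35.8%), and several of these scored high. G4, the chlorophyll synthase gene, had 3.49 (chr3:19218901-19219299). POR C, a protochlorophyllide oxidoreductase gene, had 3.48 (chr1:907251-907799), with its midpoint 2 bp inside, from a peak that also lies just inside the overlapping gene AT1G03620. HEMA1, the first committed enzyme of the pathway, had 3.19, and GUN5, the H subunit of magnesium chelatase, had 3.17. Light and clock regulators came to 7 of 47 (14.9%, 6.2 to 28.3%), and 42.6% had a peak outside, where all genes had 5.57% inside and 14.7% outside. HFR1 and PIF4, basic helix-loop-helix factors of light signalling, had 3.42 and 3.17, and the clock gene GI had 2.58. LCL1, also named RVE4, had 2.33.

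Seed maturation regulators had a peak just inside an end at 7 of 26 (26.9%, 11.6 to 47.8%), and 50% had one outside. The 7 were NF-YB6 (3.64), FUS3 (3.59), BZIP25 (3.38), WRI1 (2.96), HSI2 (2.65), AGL18 (2.64) and DOG1 (2.47), with the score in brackets. BZIP25 is a bZIP activator of storage protein genes (chr3:20220251-20220599), WRI1 switches on fatty acid synthesis genes, HSI2, also called VAL1, represses the embryo programme after germination, and DOG1 sets seed dormancy. A peak outside within 1000 bp was also present at 1 of the 7, AGL18, and at 16.5% of all 1529 genes with a peak just inside an end. LEC2, ABI3, ABI5 and LEC1 itself had peaks outside the gene and none just inside an end. The transgene also carries LEC1 sequence, so signal at LEC1 cannot be assigned to the native gene alone. At NF-YB6 the end in question overlaps its neighbour AT5G47660.

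The listed NF-Y subunit genes, from the family of LEC1, had 9 of 30 (30%, 14.7 to 49.4%). Of these, 4 were among the 8 listed NF-YC genes, 3 among 12 NF-YB genes and 2 among 10 NF-YA genes. The list leaves out some NF-YB and NF-YC genes, so these are shares of the listed genes and not of the whole family. NF-YC2 had a score of 3.44 (chr1:21024451-21024949), from a peak that also lies in AT1G56180, and NF-YB3 had 3.15 (chr4:8344301-8344749). Scores were low at NF-YB8 (2.29), NF-YC9 (2.27) and NF-YC4 (2.00), and the midpoint at NF-YC4 also lies in a second gene. A peak outside was present at none of the 9, and at 16.5% of all 1529 genes with a peak just inside. Among the 3178 highest-scoring peaks the share of the NF-Y list was 10%.

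The storage protein and oil body protein genes that were found had no peak just inside an end. None of 9 storage protein genes did (an interval of 0 to 33.6%), and 7 of the 9 (77.8%) had a peak outside. The same held for the 5 oil body protein genes found (0 to 52.2%), of which 60% had a peak outside. The listed oil body symbols OLEO5, ATS1, CLO2 and HSD1 did not match a single gene, so their genes were not examined. Both lists are short, and their intervals include the 5.57% of all genes. Genes of fatty acid and oil synthesis did have such peaks, at 6 of 32 (18.8%, 7.21 to 36.4%). The listed symbols KAS I, FATA2 and SUS2 did not match a single gene, so their genes are not counted among the 32. CAC1 and CAC3, subunits of the plastid acetyl-CoA carboxylase, had 2.99 (chr5:5363001-5363349) and 2.98 (chr2:15916951-15917349), at 122 and 118 bp inside. SUS3, a sucrose synthase gene, had 2.67, and the desaturase gene FAD2 had 2.46. BCCP2, another carboxylase subunit, scored 1.96 from a peak of 49 bp that it shares with AT5G15520.

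Late embryogenesis and desiccation genes had 5 of 24 (20.8%, 7.13 to 42.2%), and 58.3% had a peak outside, where all genes had 5.57% and 14.7%. LEA14 had the highest score, 3.14 (chr1:171351-171749), followed by TSPO with 2.68, the dehydrin gene COR47 with 2.23 and COR15A with 2.19. The median highest score, 2.23, was below the 2.39 of all genes with such a peak.

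Abscisic acid genes had a peak just inside an end at 9 of 40 (22.5%, 10.8 to 38.5%). Besides TMAC2 and HAI1 they were RCAR3, the receptor also named PYL8, with 3.02 (chr5:21560451-21560799), CYP707A1, which breaks abscisic acid down, with 2.88 (chr4:10521101-10521449), the bZIP factors ABF1 with 2.69 and ABF4 with 2.53, the kinase OST1 with 2.58, and the synthesis genes NCED9 with 2.302 and ABA1 with 2.28. The midpoint at NCED9 fell exactly on the gene end. A peak outside was also present at 2 of the 9, TMAC2 and OST1, beside 16.5% of all 1529 genes with a peak just inside. The name family of protein phosphatases 2C had 2 of 14 (14.3%), HAI1 and PP2CG1, the latter with 3.19.

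Among the other hormones, brassinosteroid genes had 5 of 21 (23.8%, 8.22 to 47.2%), namely the transcription factor BES1 (2.66), the synthesis genes DET2 (2.54), STE1 (2.25) and DWF1 (2.12), and the receptor BRI1 (2.35). Auxin genes had 10 of 47 (21.3%, 10.7 to 35.7%), and 27.7% had a peak outside. Among the 3178 highest-scoring peaks the share of the auxin list was 4.26%, where that of all genes was 2.55%. Their scores were mostly low, with a median of 2.16; ARF19, a response factor, had 3.12, the efflux carrier PIN4 had 2.83, IAA2 had 2.301 and ETT, also an auxin response factor, had 2.27. Gibberellin genes had 2 of 29 (6.90%, 0.846 to 22.8%), the synthesis gene GA3 with 2.81 and the DELLA gene RGL3 with 2.196, a share close to the 5.57% of all genes.

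Transcription factor families set by a pattern of names had shares from 1.53% to 16.4%. ERF and DREB factors had 11 of 67 (16.4%, 8.49 to 27.5%), among them RAP2.10, CBF1, ERF4 with 3.54 (chr3:5121101-5121599) and ERF10 with 3.20. Zinc finger factors of the DOF, GATA and CONSTANS-like kinds had 9 of 76 (11.8%, 5.56 to 21.3%), with BBX27 (2.82), BBX31 (2.79), COL1 (2.63) and OBP4 (2.56) highest. Genes with a bZIP or GBF name had 5 of 50 (10%), among them GBF1 at 2.96 and bZIP2 at 2.65, and these names leave out bZIP factors such as ABF1 and ABF4. NAC factors had 5 of 100 (5.00%, 1.64 to 11.3%), and 23% had a peak outside. All 5 peaks scored above 3: NAC089 with 3.42, NAC102 with 3.35, NAC053 with 3.18, ATAF1 with 3.16 and ATAF2 with 3.06. WRKY factors had 3 of 72 (4.17%), led by WRKY7 with 3.10, and homeodomain factors 3 of 68 (4.41%), led by HB32 with 2.51. MYB factors had 2 of 131 (1.53%, 0.185 to 5.41%), MYB47 with 2.32 and MYB74 with 2.25, and 19.8% had a peak outside. The 2 TCP genes of 22 were TCP9 with 3.02 and AT5G23280 with 2.25, and the 2 of 22 genes with a bHLH name were BNQ2 with 2.26 and bHLH115 with 2.00. The bHLH names leave out HFR1 and PIF4, and none of the 22 had such a peak among the 3178 highest-scoring peaks.

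Calcium signalling genes had 11 of 91 (12.1%, 6.19 to 20.6%), including CML37, a calmodulin-like protein gene with peaks inside both ends (3.28 and 2.38), CIPK15 with 3.06, CDPK6 with 2.95 and SR1 with 2.55. Reference genes of expression studies had 3 of 16 (18.8%, 4.05 to 45.6%), the cyclophilins ROC1 with 3.14 and ROC3 with 2.33 and the polyubiquitin UBQ10 with 2.79. With a limit of 200 bp this share was 6.25%, where that of all genes was 4.78%. The remaining families lay nearer the share of all genes. These were histones with 3 of 31, seed coat genes with 2 of 22 (AP2 with 2.17 and TT4 with 1.99), heat shock genes with 4 of 57, cell cycle genes with 6 of 90, translation factors with 2 of 32, expansins and xyloglucan enzymes with 4 of 67, aquaporins with 2 of 36 and proteasome and ubiquitin genes with 6 of 111. Cytochromes P450 had 10 of 241 (4.15%), EMBRYO DEFECTIVE genes 10 of 263 (3.80%), trehalose 6-phosphate and SnRK1 genes 1 of 26 (TPS7 with 2.105) and embryo patterning genes 1 of 30 (PHV with 2.04). The highest scores in the larger of these families were 3.24 at the cyclin gene CYCP2;1, 3.22 at UBC32, a ubiquitin-conjugating enzyme gene, and 3.47 at LCB1, a subunit gene of the enzyme that starts sphingolipid synthesis. Names searched for pentatricopeptide repeat genes gave 4 of 52 (7.69%), but all 4 entered through the CRR names of chlororespiratory reduction genes (CRR6, CRR42, CRR3 and CRR21), a group that also holds genes of the plastid NDH complex. Ribosomal protein names gave 1 of 68 (1.47%, 0.0372 to 7.92%), RPS15A with 2.89, but this pattern of names also takes in actin-related ARP genes and RPS disease resistance genes. Names of sugar and amino acid transporters gave 4 of 115 (3.48%, 0.956 to 8.67%). These were SUT4 with 2.15 and UMAMIT8 with 2.02, and, through a pattern that also takes in catalases and dehydration-induced ERD genes, ERD9 with 3.50 and ERD4 with 2.95, which are not known as such transporters. The sugar transporter TMT2, described above, is not covered by these names. Plastid translation and ribosome names gave 0 of 20 (0 to 16.8%). In all, 27 of the 42 lists and families had a share above 5.57% and 15 a share below it. The lists were drawn by symbol or name, however. Of the 10374 protein-coding genes with a symbol, 772 had such a peak, a larger share than 5.57%. The share of all genes is thus a low background for these lists, and those only slightly above it are not set apart from genes with a symbol. The lists overlap and were chosen with earlier results known, so these numbers are a description.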

How the data were processed

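Per the submitters' processing notes, reads were handled with Bowtie 0.12.7 and SAMtools 0.1.19 on TAIR10. Not given in the sources used here: read filters, peak caller, cutoff and any pooling of replicates. Deposited was 1 peak list with a score per peak, made by the authors on a scale that is not given; the scores only describe and rank peaks within the list. All 6356 starts lie on a 50 bp grid. Starts were raised by 1, and the midpoint was the mean of start and end.

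Genes came from a RefSeq table of assembly TAIR10.1 (27444 protein-coding genes on chromosomes 1 to 5). The table has no strand and no exons, and sequence was not used, so the planned split into starts and ends of transcription and the planned motif searches were not analysed here. Gene ends in another annotation can differ, and no gene coordinates are printed.

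The peaks and gene lists were chosen with earlier results of these data known. Of 543 symbols in 18 lists, some in more than 1 list, 505 matched a single gene; 24 families were set by patterns of gene names, which can also catch unrelated genes. From the auxin list 1 symbol, ARF3, was removed after values were seen, because it matched a gene that is not the auxin response factor. Also with values known, 5 symbols that had matched other genes were replaced by those of the intended genes (CRU2, CRU3, CH1, WSIP2 and CR4), which left every share inside gene ends as it was and moved shares outside. Named genes are those of the 20 highest-scoring, 5 widest and 5 lowest-scoring peaks, up to 4 per list, and the peaks nearest the 300 bp limit; any other gene was named with its values known. No test was run, because 1 list gives no values per sample. Alternatives were other distance limits, score and width limits and stricter overlap. The classification was tested on simulated data. Python 3.11.15, pandas 2.3.3 and SciPy 1.17.1 were used. The depth of the libraries is unknown.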

Additional observations from a re-analysis of the deposited data

How the results depend on the processing

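No paired analysis was possible because the deposited list carries no values per sample. With a limit of 200 or 400 bp, with the widest 5% left out, or with midpoints in exactly 1 gene, the counts of peaks and genes stayed within 1.5 times those reported, with median scores of 2.39 and median widths of 199 or 249 bp. The same held for midpoints taken from the columns as written (1523 peaks) and for the nearest end of any protein-coding gene (1556 peaks), both chosen after seeing the data. With the 3178 highest-scoring peaks, 696 peaks in 701 genes remained, with a median score of 2.78 and a median width of 299 bp. Without the narrowest 25%, 987 peaks in 998 genes remained, with medians of 2.62 and 299 bp. With the whole peak required inside the gene there were 661 peaks in 662 genes, with medians of 2.23 and 149 bp; this count takes any gene within the limit, and so exceeds the 648 peaks wholly inside the gene whose end is nearest. These settings select on width, score or overlap by construction. At 200 and 400 bp all 42 list shares stayed within their intervals; with the 3178 highest-scoring peaks 17 did not, while the share of all genes dropped to 2.55%, and 2.55% is the share to read the lists against. Calvin cycle genes then had 29.6%, seed maturation regulators 26.9%, photosystem and light-harvesting genes 26.7%, NF-Y genes 10%, brassinosteroid genes 9.52%, late embryogenesis genes 8.33%, light and clock regulators 6.38%, calcium signalling genes 4.40% and auxin genes 4.26%. Reference genes of expression studies had 6.25% at 200 bp, where all genes had 4.78%, and 18.8% at 400 bp, where all genes had 5.98%. Among the 3178 highest-scoring peaks they had 12.5%, and histones had 9.68%. The depth of the libraries is unknown, peak edges are no finer than 50 bp, and gene ends depend on the annotation.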
